A study of Mus musculus with 4 samples.

Results

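Pou5f1, Sox2, Sall4 and Utf1 are 4 of the 32285 genes counted in single mouse embryonic stem cells (mESC), and each was taken by its symbol in the gene table. They were examined for how stable their transcript levels were across libraries and cell states, how far they varied from cell to cell beyond counting, and whether they varied together. The cells were E14tg2a.4, a male mESC line, and a heterozygous gene-trap line derived from it that carries a truncation of Srrm2, which encodes a spliceosome-associated protein. The labels list 2 WT and 2 Srrm2 hKO (heterozygous knockout, Srrm2+/-) samples, and Srrm2+/- is represented by a single gene-trap line. Both lines were kept on gelatin in medium with LIF. The growth text that all 4 labels share names 24 h or 72 h in serum-free medium with LIF for the study's cultures, whereas the study's methods give 1 growth time, different from both, for all cells sequenced singly. The matrix numbers its libraries 1 to 4 without tying a number to a sample, so Srrm2 hKO and WT were not compared and each value below belongs to 1 library with no replicate error.

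POU5F1 (OCT4) is a POU-domain factor without which the inner cell mass does not form pluripotent cells, and it binds many enhancers jointly with SOX2, an HMG-box factor. SALL4 is a zinc-finger factor of the same network that recruits the NuRD chromatin-remodelling complex. UTF1 is a chromatin-associated protein of undifferentiated embryonic cells whose gene is a known target of the OCT4 and SOX2 pair. mESC in LIF move between a naive state, marked by factors such as NANOG, KLF2 and ZFP42, and a formative state closer to the post-implantation epiblast, marked by factors such as OTX2 and DNMT3B.

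In the GRCm38 annotation (GENCODE M21), Pou5f1 (ENSMUSG00000024406) lies on chromosome 17 from 35506018 to 35510772 on the plus strand. Sox2 (ENSMUSG00000074637) has 1 exon on chromosome 3 from 34650405 to 34652461, plus strand. It lies within the long non-coding gene Sox2ot on the same strand, of which 0 exons overlap it. Sall4 (ENSMUSG00000027547) lies on chromosome 2 from 168748332 to 168767943 on the minus strand, and Utf1 (ENSMUSG00000047751) on chromosome 7 from 139943789 to 139945112 on the plus strand.

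The regions around the transcription starts of Pou5f1, Sox2 and Utf1 are shown as those of the 4 genes with an entry in the table of RefSeq start regions used here. Each runs 5′ to 3′ on the plus strand from 250 bases before to 50 bases after the start in RefSeq (GRCm38.p6), at chr17:35505782-35506081, chr3:34649745-34650044 and chr7:139943606-139943905. Capitals mark the letters GGGCGG (GC box), AGGTCA (a core recognised by nuclear receptors), ATGCAAA (the core of the octamer bound by POU factors) and CCAAT, on either strand.
Pou5f1: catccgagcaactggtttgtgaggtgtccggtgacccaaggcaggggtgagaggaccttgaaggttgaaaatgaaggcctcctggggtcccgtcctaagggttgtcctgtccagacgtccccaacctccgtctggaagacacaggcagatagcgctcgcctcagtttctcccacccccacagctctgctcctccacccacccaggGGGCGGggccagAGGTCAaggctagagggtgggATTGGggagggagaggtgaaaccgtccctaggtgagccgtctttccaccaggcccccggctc
Sox2: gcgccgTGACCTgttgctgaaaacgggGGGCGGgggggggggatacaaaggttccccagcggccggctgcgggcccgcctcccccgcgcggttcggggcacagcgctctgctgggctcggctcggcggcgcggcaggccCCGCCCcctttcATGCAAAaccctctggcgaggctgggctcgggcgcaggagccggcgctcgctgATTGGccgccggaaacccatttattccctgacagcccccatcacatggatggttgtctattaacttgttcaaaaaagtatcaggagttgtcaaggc
Utf1: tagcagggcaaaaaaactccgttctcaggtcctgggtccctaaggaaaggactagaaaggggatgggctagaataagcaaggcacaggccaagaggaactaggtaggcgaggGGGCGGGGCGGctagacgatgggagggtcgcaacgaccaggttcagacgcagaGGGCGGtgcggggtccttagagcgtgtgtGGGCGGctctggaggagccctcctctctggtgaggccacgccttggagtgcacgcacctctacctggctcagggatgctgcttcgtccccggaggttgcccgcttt
The 4 motifs were chosen after the sequences were read. The Pou5f1 region held a GC box 45 bases before the start, an AGGTCA core 33 bases before it and CCAAT, on the other strand, 12 bases before it. The Sox2 region held ATGCAAA 99 bases before its start, a match found in 4.63% of the 32851 RefSeq start regions, and 2 GC boxes, while the Utf1 region held 4 GC boxes. The Sox2 region also held AGGTCA 244 and CCAAT 46 bases before its start, both on the other strand. GC boxes were found in 35.7%, AGGTCA in 16.3% and CCAAT in 37.4% of all start regions. These are matches of letters only, and the RefSeq start of Sox2 lies 410 bases before the GENCODE start.

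The cells were filtered anew by the limits that the study's methods give, and the kept set is not identical in size to the study's own. It held 31989 of 41142 barcodes, between 7464 and 8514 cells per library, with 166839268 to 200180473 unique molecular identifiers (UMIs) per library and a median of 18378 to 21898 UMIs per cell. Of the barcode sequences, 160 occurred in more than 1 library, and 105 did so among kept cells. Levels are given as CPM, the UMIs of a gene per 1000000 UMIs of the cells in question, with exact 95% Poisson intervals that cover counting error only. CPM of 3′ UMIs is not scaled to transcript length, so levels were compared within a gene and not between genes.

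By CPM, Pou5f1 and Utf1 stayed within a narrower range of levels over the 4 libraries than Sox2 and Sall4, which ranged about as widely as a typical gene. Pou5f1 measured 847 CPM in library 1, 794 in library 2, 663 in library 3 and 773 in library 4. Its highest level was 1.28-fold its lowest (1.27 to 1.29), and 31.4% of the 11099 genes with at least 200 counts in every library had a smaller range. Utf1 measured 586, 507, 555 and 548 CPM in libraries 1 to 4, a range of 1.16-fold (1.15 to 1.17), and 12.0% of genes had a smaller one. Both were highest in library 1, and library 3 was the low one for Pou5f1 but not for Utf1.

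Sox2 separated the libraries into pairs, at 419 and 407 CPM in libraries 1 and 2 and at 307 and 300.0 CPM in libraries 3 and 4. The range was 1.40-fold (1.38 to 1.41). Sall4 paired the libraries differently, at 102 CPM in library 1, 151 in library 2, 111 in library 3 and 150.3 in library 4, a range of 1.48-fold (1.46 to 1.51). Of the 24 pairwise ratios between libraries over the 4 genes, 1 had an interval that held 1, which was Sall4 in libraries 2 and 4 (ratio 1.00, 0.986 to 1.02). The 4 genes did not order the libraries alike.

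Over all genes the median range was 1.42-fold, and 41% ranged at least 1.5-fold. None of the 4 genes did so by CPM. With median-of-ratios size factors, which were -0.12 (library 1) and 0.09 (library 4) on the log2 scale relative to the UMI totals, the ranges became 1.39-fold for Pou5f1, 1.62-fold for Sox2, 1.32-fold for Sall4 and 1.29-fold for Utf1, so that Sox2 passed 1.5-fold and Pou5f1 ranged more widely than Sall4. Srrm2 itself ranged 2.24-fold.

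Other genes of the network ranged more widely. Of the 10 genes of the naive list (Nanog, Klf2, Klf4, Klf5, Esrrb, Tfcp2l1, Tbx3, Nr5a2, Prdm14 and Zfp42), 9 ranged at least 1.5-fold, with a median range of 2.48-fold. Of the 8 genes of the formative list (Otx2, Fgf5, Pou3f1, Dnmt3a, Dnmt3b, Lef1, Tcf15 and Zic2), 7 had enough counts and all 7 ranged at least 1.5-fold, with a median of 5.03-fold. Among 13 general pluripotency genes the number was 7, and among the 11 NuRD genes it was 4. None of the 14 S-phase or 14 G2/M genes ranged that far.

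To place the 4 genes among cell states, each cell was thinned to 5000 UMIs and sorted into ranges by its UMIs of 3 marker lists, none of which holds any of the 4 genes. A list counted as high at 5 or more UMIs. Keratin-high cells had a high sum of Krt8, Krt18, Tagln, Acta2, Cnn1 and Acta1, keratins and contractile genes that embryonic stem cells express at low levels. The other cells were called naive only, formative only, both or neither. These are ranges cut from sums and not cell types. Between 7.93% and 12.7% of cells per library lay within 1 UMI of the naive threshold, 3.47% to 19.0% of the formative one and 0.172% to 1.92% of the keratin one, counting sums of 4 and 5.

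The libraries differed in these ranges. Naive only cells made up 89.4%, 62.9%, 67.3% and 31.8% of libraries 1 to 4. Formative only cells made up 1.36%, 16.4%, 5.99% and 39.2%. Keratin-high cells made up 0.825% and 0.611% of libraries 1 and 2 but 9.38% and 5.08% of libraries 3 and 4, which is 67, 52, 740 and 379 cells. Over all kept cells, markers of other cell types summed to low levels, with 6 fibroblast genes at 0.833, 0.834, 10.6 and 2.05 CPM and 6 trophectoderm genes at 4.27, 3.29, 11.2 and 6.57 CPM in libraries 1 to 4. Both sums were highest in library 3, and their part in the levels below was not tested.

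**Figure D1:**
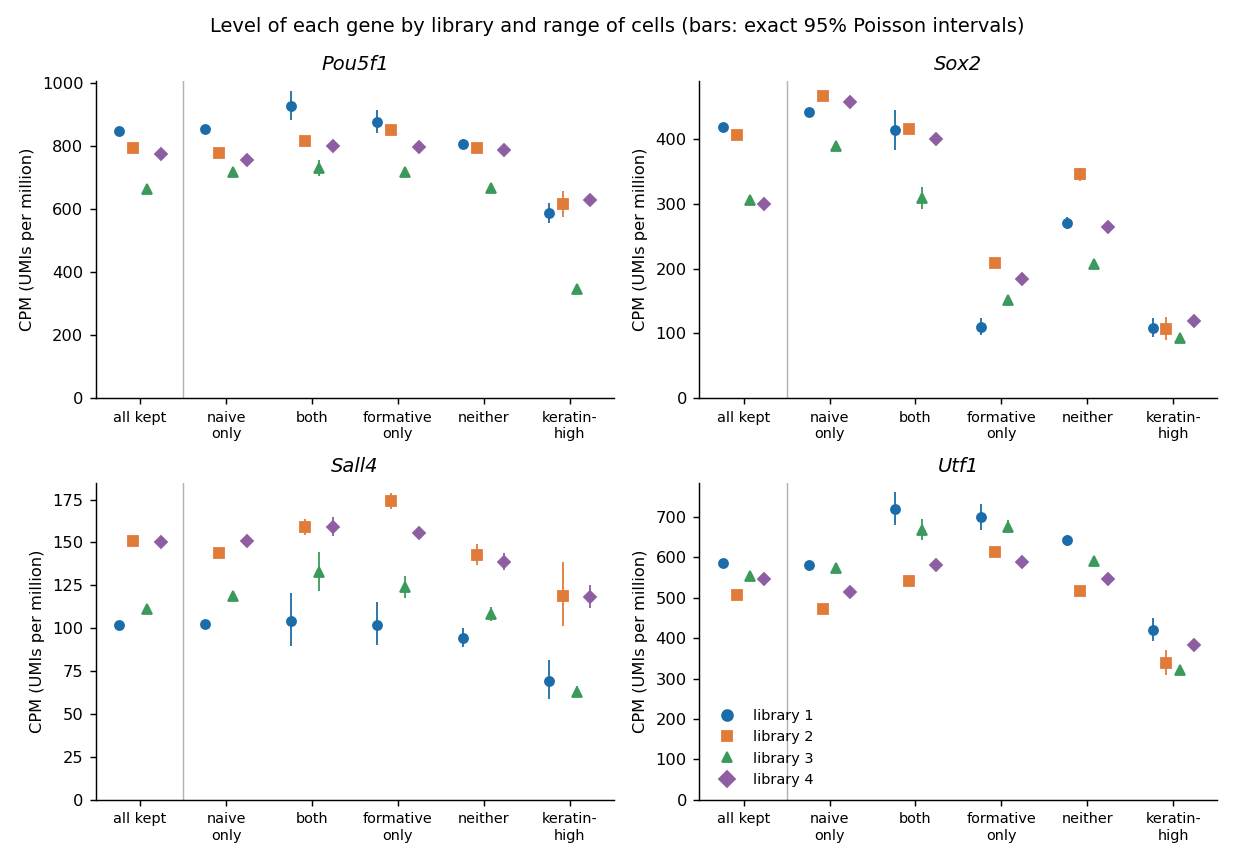
Levels (CPM, linear axis from 0) of the 4 genes in all kept cells and in the 5 ranges of cells, with 1 point per library and exact 95% Poisson intervals. Sox2 lies at 110 to 209 CPM in formative only cells, in which the other 3 genes are at 0.994 to 1.29 of their naive only level, and all 4 genes are lowest in keratin-high cells.

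Sox2 differed most between the states of the 4 genes. In naive only cells its levels were 443 (439 to 446), 467 (463 to 471), 389 (385 to 393) and 457 (451 to 463) CPM in libraries 1 to 4. In formative only cells it measured 110 (97.5 to 123), 209 (204 to 214), 152 (145 to 159) and 184 (181 to 187) CPM. No formative only level reached any naive only level of any library. The formative only level was 0.248, 0.448, 0.391 and 0.403 of the naive only level in libraries 1 to 4. Of 5601 genes with at least 50 counts in both ranges of every library, 2.48% were at least 1.5-fold lower in every library and 7.64% at least 1.5-fold higher, and Sox2, alone among the 4 genes, was among the lower ones.

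Cells high for both lists were close to naive only cells in Sox2, at 414, 416, 309 and 400.3 CPM, or 0.935, 0.890, 0.794 and 0.876 of the naive only level. Cells high for neither lay between the ends, at 270.1, 345, 206 and 263 CPM. None of the 4 genes passed the 1.5-fold rule for cells high for both lists, where 0.265% of 4144 genes were higher and 0.0483% lower, or for neither, where 2.83% of 9360 genes were higher and 0.427% lower. Nor did any pass it between formative only cells and cells high for neither, where 0.446% of 5601 genes were higher and 0.518% lower. In every library Sox2 descended in the order naive only, both, neither, formative only and keratin-high. In library 1 the intervals of formative only (97.5 to 123) and keratin-high (94.8 to 123) cells overlapped, and the interval of cells high for both (384 to 445) also overlapped that of naive only cells.

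Pou5f1 had nearly the same level on both sides. It measured 853, 776, 716 and 756 CPM in naive only cells of libraries 1 to 4 and 876, 851, 717 and 797 CPM in formative only cells. The ratios of formative only to naive only were 1.03 (0.986 to 1.07), 1.10 (1.08 to 1.11), 1.00 (0.979 to 1.02) and 1.05 (1.04 to 1.07), so the difference was at most 1.10-fold and in libraries 1 and 3 was within counting error. Sall4 gave ratios of 0.994, 1.21, 1.04 and 1.03, with intervals that held 1 in libraries 1 and 3.

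Utf1 lay somewhat higher in formative only cells in each library. It measured 580.1, 473, 575 and 514 CPM in naive only cells and 699, 613, 677 and 589 CPM in formative only cells, ratios of 1.21, 1.29, 1.18 and 1.15 whose intervals all lay above 1. Across the 5601 genes the median of this log2 ratio, averaged over libraries, was 0.15, and the ratios of Utf1 were 0.27, 0.37, 0.24 and 0.20 on that scale. They stayed below the 1.5-fold limit. Srrm2 gave similar ratios, 1.18, 1.18, 1.26 and 1.15.

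The range of Sox2 over the libraries was smaller within naive only cells, 1.20-fold (1.19 to 1.22) against 1.40-fold over all kept cells, but wider within formative only cells (1.90-fold, 1.69 to 2.15) and within cells high for neither list (1.67-fold, 1.61 to 1.74). It was 1.35-fold within cells high for both and 1.29-fold within keratin-high cells. Within naive only cells Sall4 ranged 1.47-fold against 1.48-fold. For Pou5f1 it was 1.19-fold against 1.28-fold, and for Utf1 it was 1.23-fold against 1.16-fold. Library 1 was lowest for Sall4 among naive only, both, formative only and neither cells alike, whereas in keratin-high cells library 3 was lowest.

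A finer division by the naive list was made as well. Among cells outside the keratin-high range, those with 0 UMIs of the naive list had 97.2, 146, 109.9 and 152 CPM of Sox2 in libraries 1 to 4. Cells with 5 or 6 such UMIs had 384, 409, 346 and 390.4 CPM, and cells with 14 or more had 499, 519, 455 and 542 CPM. The level went up at each of the 7 steps in all 4 libraries. At 14 or more UMIs library 4 was highest for Sox2, although it was lowest over all its cells. Over the same steps from first to last Pou5f1 went from 844 to 883, from 865 to 791, from 639 to 735 and from 794 to 771 CPM in libraries 1 to 4. Utf1 went from 715 to 553, from 604 to 446, from 593 to 526 and from 573 to 503 CPM, so it ended lower than it began in each library, although in libraries 3 and 4 it first went up. Sall4 went from 93.7 to 107, from 178 to 151, from 104 to 121 and from 152 to 155 CPM, with no direction shared by the libraries.

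**Figure D2:**
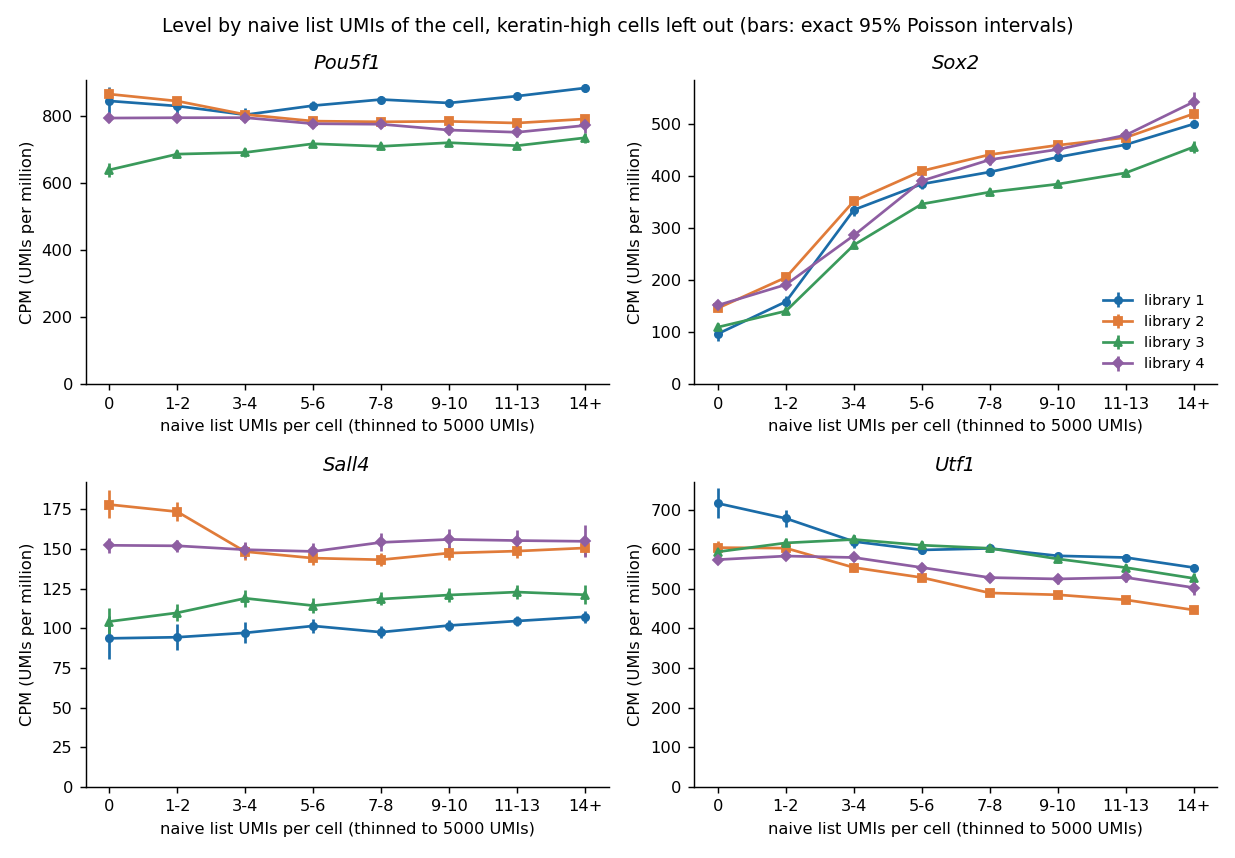
Levels (CPM, linear axis from 0) of the 4 genes against the UMIs of the naive list in the cell (thinned to 5000 UMIs), with 1 line per library, exact 95% Poisson intervals and keratin-high cells left out. The Sox2 lines climb from 97.2 to 152 CPM at 0 naive UMIs to 455 to 542 CPM at 14 or more, the Utf1 lines end lower than they start in each library, and the Pou5f1 and Sall4 lines share no direction.

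Known targets and relatives of these factors were followed in the same comparison. Of the 4 genes taken as OCT4 and SOX2 targets, Nanog (0.312, 0.208, 0.261 and 0.208 of the naive only level in libraries 1 to 4) and Fbxo15 (0.149, 0.273, 0.298 and 0.240) were lower in formative only cells by the 1.5-fold rule. Of all 5601 genes compared, 2.48% were lower. Nanog was one of the genes that defined the ranges. Fgf4, a growth factor that drives exit from the naive state, had ratios of 0.546, 0.631, 0.672 and 0.594 and missed the rule in library 3. Lefty1, an inhibitor of Nodal signalling, was above 1 in libraries 1 and 3 (2.41 and 3.02) and below 1 in libraries 2 and 4 (0.415 and 0.590).

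Of 12 relatives of the 4 genes, 6 had enough counts and 4 were higher in formative only cells, where 7.64% of all genes were. The median log2 ratio of the 6 was 2.49 against 0.15 for all genes. The limit of 50 counts had to be met in the 110 formative only cells of library 1, so it favoured relatives that were high there. The share and median therefore do not describe the relatives as a group. Of those with too few counts, Sall2 had ratios of 8.60 to 20.5 and Sox15 of 0.159 to 0.272. The SOX genes among the 4 called higher were Sox3 (8.69- to 14.1-fold), Sox4 (4.25- to 5.45-fold) and Sox11 (3.85- to 16-fold). The POU gene Pou3f1 was 9.73- to 32.0-fold higher, but it is a member of the formative list and so defined the range. Sall1, a paralog of Sall4, had ratios of 0.501 to 0.856. None of the 11 NuRD genes passed the rule, and Chd4, its ATPase, had ratios of 1.56, 1.27, 1.41 and 1.19.

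Among the general pluripotency genes, 1 of 13 was higher (Lin28a, an RNA-binding protein, 1.55- to 2.23-fold) and 3 were lower, where 7.64% of all genes were higher and 2.48% lower, so that the share higher was near that of all genes. The median log2 ratio of the list was -0.27. The lower ones were Dppa5a (0.236 to 0.487), Nr0b1 (0.148 to 0.190) and Fbxo15, which is also one of the targets above. Tdgf1, the Nodal co-receptor, had ratios of 0.991 to 1.18, and L1td1, an RNA-binding protein, of 1.20 to 1.30.

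Keratin-high cells had less of all 4 genes than naive only cells of the same library. Sox2 had the lowest ratios, at levels of 108, 106, 92.7 and 120 CPM in libraries 1 to 4, or 0.245, 0.228, 0.238 and 0.262 of the naive only level. Pou5f1 measured 586, 615, 347 and 629 CPM there, or 0.688, 0.792, 0.484 and 0.832 of the naive only level. Library 3 thus stood below the other libraries for Pou5f1. Sall4 was at 0.674, 0.825, 0.530 and 0.785, and Utf1 at 0.726, 0.718, 0.560 and 0.744 of the naive only level, and for both of them the ratio was again lowest in library 3.

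Other genes of the network were lower there too. Of 9 general pluripotency genes that could be compared, 5 were lower by the 1.5-fold rule, namely Dppa4, Dppa5a, Tdgf1, Gdf3 and Trim28, and none was higher, with a median log2 ratio of -0.997 against 0.09 for all genes. Of 4 relatives with enough counts, Sox4, Sox11 and Pou3f1 were higher. The count limit had to be met in the 52 keratin-high cells of library 2, so it favoured relatives that were high there. The shares of all genes were 3.39% lower and 15.5% higher. Among 11 NuRD genes, Mta3 was lower (0.537 to 0.603), and none of the 4 OCT4 and SOX2 targets had enough counts.

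All 16 ratios of Pou5f1, Sox2, Sall4 and Utf1 between keratin-high and naive only cells had intervals below 1. By the same rule, over 3834 genes, Sox2 was the 1 of the 4 genes called in keratin-high cells, as lower. Against cells high for neither list, where 1.44% of 3825 genes were lower and 9.44% higher, Sox2 was again the 1 called, with ratios of 0.401, 0.308, 0.449 and 0.454. Srrm2 had ratios to naive only cells of 1.03, 0.944, 1.01 and 0.991, and each interval held 1. Its ratios to cells high for neither list were 0.966, 0.921, 0.920 and 0.984, with intervals below 1 in libraries 2 and 3. Keratin-high cells had a median of 23220 to 27734 UMIs and a median mitochondrial share of 3.08% to 3.64%, against 18236 to 21815 UMIs and 3.74% to 5.46% in naive only cells. Of 13 S-phase genes 2 were lower in keratin-high cells, with a median log2 ratio of -0.43, beside -0.23 for the 14 G2/M genes. Most lists of markers of other cell types were higher in sum in keratin-high cells, but not all in every library. The 6 fibroblast genes summed to 43.2, 18.2, 73.9 and 22.0 CPM in libraries 1 to 4, against 0.258 to 0.945 in naive only cells. Lum was at 0 in libraries 1, 2 and 4, Pdgfrb in libraries 1 and 2, and Dcn in library 2. The 6 trophectoderm genes summed to 32.5, 37.9, 69.6 and 50.7 CPM, against 2.33 to 3.91. Elf5 was at 0 in all 4 libraries and Cdx2 in library 1. In library 3 Krt7, a keratin, held 822 of the 1184 UMIs of this list in keratin-high cells with a Pou5f1 UMI. In those without one it held 222 of 294. The 6 primitive streak genes summed to 23.1 to 36.4 CPM against 1.75 to 3.03. The 6 primitive endoderm genes summed to 0.929 CPM in library 1, against 1.01 in its naive only cells. In libraries 2 to 4 they summed to 7.72 to 8.75, against 0.594 to 0.704. The 6 two-cell-like genes summed to 0, 5.10, 1.79 and 0 CPM in libraries 1 to 4, against 0.421, 0.328, 0.532 and 0.0742. The part of these differences in the levels was not tested.

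Sox2 also moved with depth and with the mitochondrial share over all kept cells. In the 25% of cells with the highest mitochondrial share its level was 1.17-, 1.18-, 1.64- and 1.41-fold that in the 25% with the lowest share, in libraries 1 to 4. In the 25% of cells with the most UMIs it was 0.829, 0.947, 0.693 and 0.936 of that in the 25% with the fewest. For Utf1 the mitochondrial ratios were 0.883, 0.877, 1.02 and 0.884. The part of these measures in the differences between states was not tested.

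Spread from cell to cell was measured as the excess squared coefficient of variation (CV), which is the variance minus the mean, divided by the squared mean, of the UMIs at 5000 per cell. It is 0 for a Poisson count. Sox2 had the largest excess of the 4 genes in each library, at 0.134, 0.186, 0.289 and 0.393 in libraries 1 to 4, on means of 2.16, 2.05, 1.61 and 1.54 UMIs. Of the 2858 genes with a mean of at least 0.2 UMIs in every library, 78.4%, 88.6%, 89.4% and 94.7% had a smaller excess. Pou5f1 had an excess of 0.0339, 0.0316, 0.0893 and 0.0358, on means of 4.26, 3.97, 3.38 and 3.85 UMIs, so that 23.8% to 27.9% of genes had a smaller excess in libraries 1, 2 and 4 and 51.0% in library 3.

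Utf1 had an excess of 0.0778, 0.0893, 0.140 and 0.0821, and Sall4 of 0.0886, 0.0575, 0.123 and 0.0966. The median of all genes was 0.0644, 0.0617, 0.0867 and 0.0732 in libraries 1 to 4. In library 3 Pou5f1, Sall4 and Utf1 each had their largest excess. An excess of at least 0.1 in every library was found for 17.7% of genes, and of the 4 genes for Sox2. By the same rule it was found for all 5 naive genes and both formative genes with enough UMIs, for 5 of 10 general pluripotency genes and for 10 of 14 G2/M genes.

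**Figure D3:**
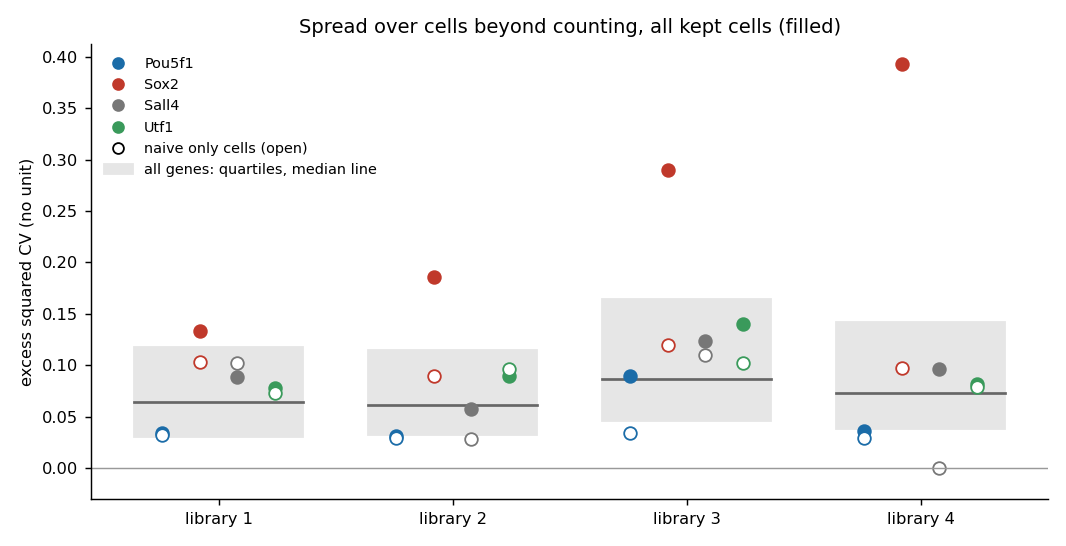
Excess squared CV (no unit, 0 for a Poisson count) of the 4 genes in each library over all kept cells (filled) and over naive only cells (open), beside the quartiles and median of 2858 genes (grey). Over all kept cells Sox2 lies between 0.134 (library 1) and 0.393 (library 4), and over naive only cells between 0.0899 and 0.120.

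Within naive only cells the excess of Sox2 was 0.103, 0.0899, 0.120 and 0.0976, so the libraries were much closer to each other than over all kept cells, and the limit of 0.1 was no longer reached in libraries 2 and 4. Pou5f1 had 0.0318, 0.0293, 0.0346 and 0.0291 there, with library 3 no longer apart. Utf1 had 0.0732, 0.0968, 0.102 and 0.0790. The spread of Sox2 was wider among formative only cells, at 0.589, 0.530, 0.965 and 0.424, where its mean was 0.609 to 1.00 UMIs. Among the 740 keratin-high cells of library 3 the excess was 0.709 for Pou5f1, 0.681 for Utf1 and 0.985 for Sox2, and among the 379 of library 4 it was 0.182, 0.331 and 0.936.

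At the UMIs as deposited, nearly every cell held Pou5f1. It was without a UMI in 8 of 8118 kept cells of library 1, 6 of 8514 of library 2, 174 of 7893 of library 3 and 17 of 7464 of library 4, or 0.0985%, 0.0705%, 2.20% and 0.228%. Utf1 was without a UMI in 43, 35, 260 and 43 cells. Library 3 stood apart for both, and 148 of its 174 cells without Pou5f1 and 199 of its 260 cells without Utf1 were keratin-high. These 148 cells were 20% of the keratin-high cells of library 3 (17.2% to 23.1%, exact binomial), against 10.4%, 7.69% and 3.43% in libraries 1, 2 and 4, which rest on 7, 4 and 13 cells. In naive only cells Pou5f1 was without a UMI in 1 of 7260, 0 of 5359, 2 of 5313 and 0 of 2377 cells. A count of 0 of 5359 allows a share of up to 0.0688% by the exact interval.

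Many cells without Pou5f1 were also without Utf1. In library 3, of 174 cells without Pou5f1, 133 (76.4%) were also without Utf1, which is 51.2% of the 260 cells without Utf1. In libraries 1, 2 and 4 the cells without either were 5 of 8, 3 of 6 and 9 of 17 cells without Pou5f1, or 62.5%, 50% and 52.9%. They were 11.6%, 8.57% and 20.9% of the cells without Utf1. In naive only cells of library 3, 1 of the 30 cells without Utf1 was without Pou5f1.

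Sox2 was without a UMI in 134, 214, 535 and 565 cells, or 1.65%, 2.51%, 6.78% and 7.57%, where a Poisson count at each cell's depth would give 0.177%, 0.156%, 0.753% and 0.741%. In naive only cells the share was 0.496%, 0.149%, 0.866% and 0.337%, and in formative only cells it was 22.7%, 11.2%, 17.8% and 12.3%. Sall4 was without a UMI in 17.3%, 6.99%, 15.6% and 8.28% of cells, against 15.7%, 5.05%, 12.7% and 5.68% by Poisson counts. All 4 genes had a UMI in 81.1%, 90.5%, 79.2% and 85.0% of cells, and none of them in 3, 1, 52 and 1 cells. No cell type known from the labels to lack these genes was present, so the background of free RNA was not measured.

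**Figure D4:**
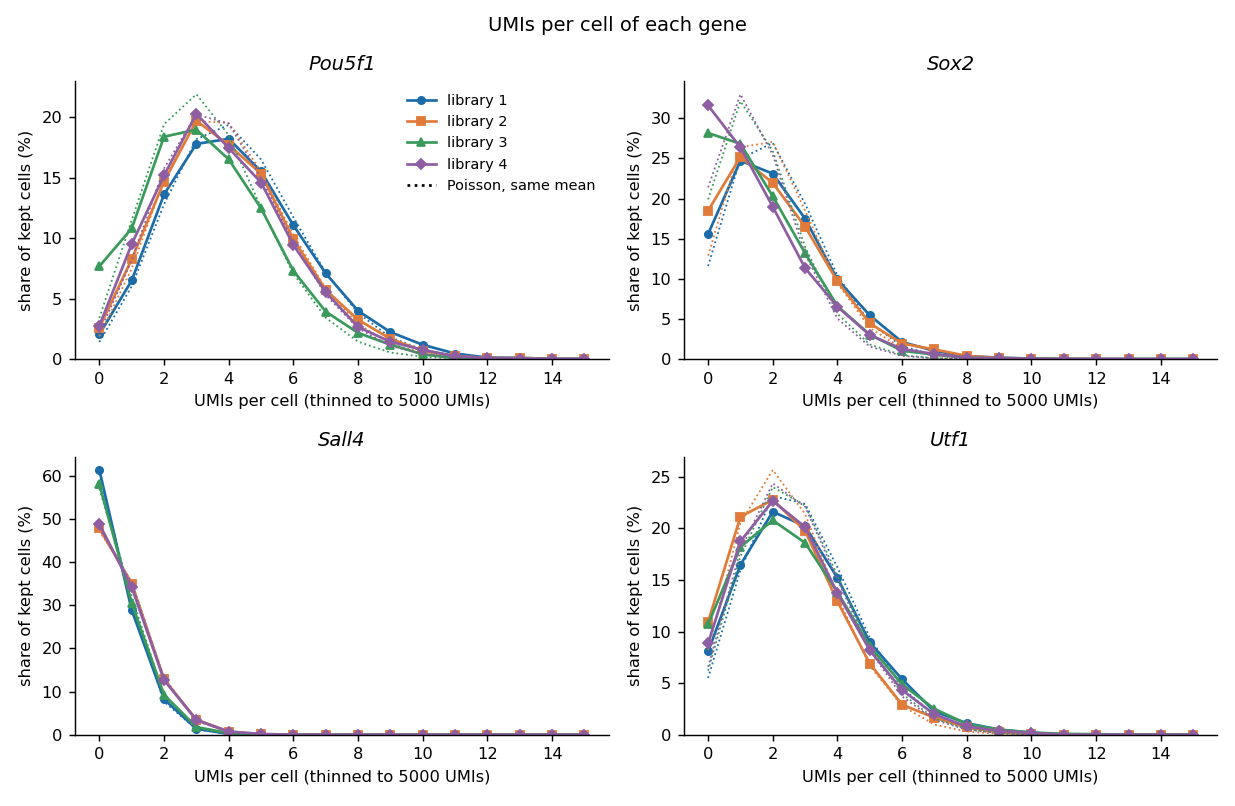
Share of kept cells (%) by UMIs of each gene per cell after thinning to 5000 UMIs, with 1 line per library and, dotted, a Poisson count of the same mean. Sox2 has more cells at 0 than the dotted line in every library (31.6% against 21.4% in library 4), and Pou5f1 has such a surplus most clearly in library 3 (7.68% against 3.40%).

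Over all kept cells of a library, the 4 genes had low correlations with each other. Correlations are Pearson r of log(1 + UMIs at 5000), given as a description, since cells of a library share its depth and preparation and sparse counts pull r toward 0. Pou5f1 and Sox2, which bind DNA as partners, had r of 0.0034 in library 1, -0.032 in library 2, 0.129 in library 3 and 0.0081 in library 4. The highest pair was Pou5f1 and Utf1, with 0.035, 0.063, 0.214 and 0.103. Sall4 had r between -0.029 and 0.081 with the other 3 genes. Library 3 had the highest of these r for each of the 6 pairs. Values with the counting variance removed were computed on UMIs without the log, so they differ from r in scale as well. With it removed, Pou5f1 and Utf1 had 0.232, 0.420, 0.475 and 0.525 in libraries 1 to 4, so library 4 was then highest. Pou5f1 and Sall4 had 0.231, 0.062, 0.429 and -0.020 on that scale, and Pou5f1 and Sox2 had -0.019, -0.219, 0.293 and -0.028. Without the log and before the removal, Pou5f1 and Sox2 had r of -0.0032, -0.038, 0.080 and -0.0061 in libraries 1 to 4. The corrected values of Sall4 rest on means under 1 UMI per cell.

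Among naive only cells Pou5f1 and Utf1 had r of 0.021, 0.053, 0.017 and 0.063, and Pou5f1 and Sox2 -0.0099, -0.0074, -0.012 and -0.023, so library 3 no longer stood apart. Among keratin-high cells Pou5f1 and Utf1 had r of 0.545 in library 3 (740 cells) and 0.320 in library 4 (379 cells), and 0.573 and 0.458 in the 67 and 52 cells of libraries 1 and 2. With the counting variance removed, that pair had 0.810 in the keratin-high cells of library 3 and 0.702 in those of library 4. The other 5 pairs had uncorrected r of 0.112 to 0.185 in the keratin-high cells of library 3, and 0.302 to 0.676 with the counting variance removed. In library 1 the corrected value of Pou5f1 and Utf1 was 1.32, past the highest value a correlation can take. In library 2 it could not be computed.

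Sox2 varied with the naive genes. Its r with the sum of the naive list was 0.249, 0.366, 0.409 and 0.456 in libraries 1 to 4, and with the sum of the formative list -0.088, -0.253, -0.147 and -0.273. Pou5f1 had r with the naive sum of 0.060, -0.057, 0.245 and 0.0050. Utf1 was positive with the formative sum in each library, at 0.076, 0.159, 0.154 and 0.157. Within naive only cells the median over libraries of the r of Sox2 with the naive sum was 0.116. That range was cut by the same sum, so the spread of the sum was narrowed by construction.

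**Figure D5:**
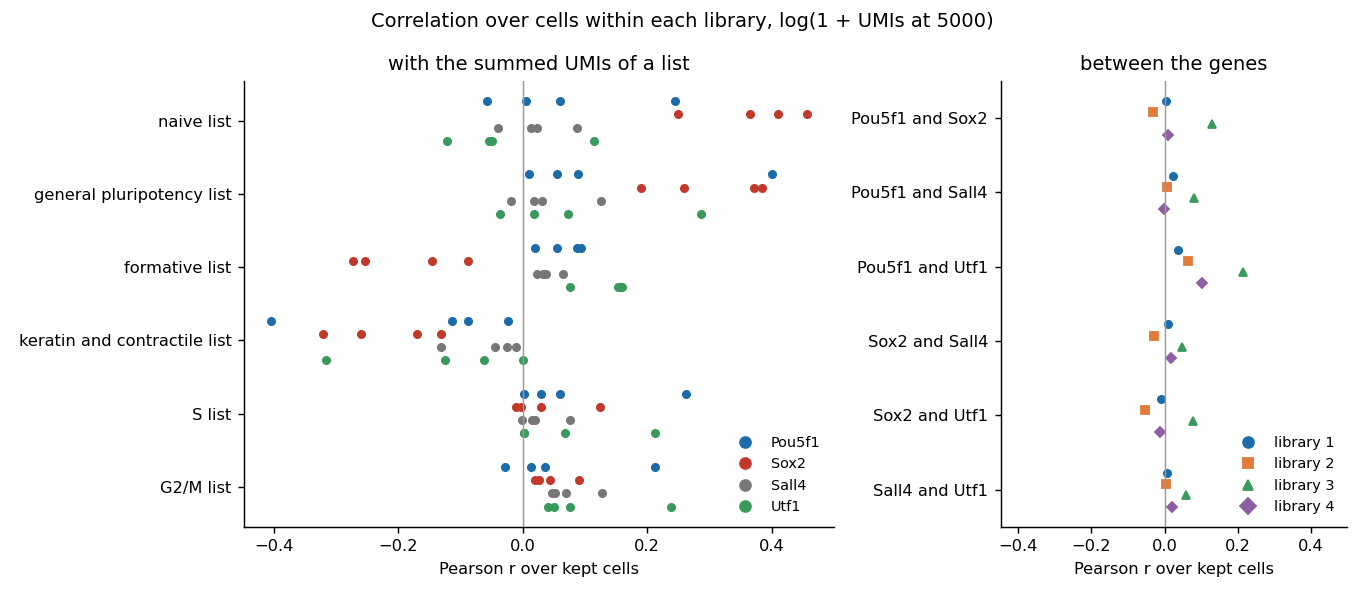
Pearson r over kept cells, 1 point per library, of each gene with the summed UMIs of 6 gene lists (left) and of the 4 genes with each other (right), on log(1 + UMIs at 5000). Sox2 lies at 0.249 to 0.456 with the naive list and below 0 with the formative list, whereas between the genes no point passes 0.214.

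The genes most like Sox2 over cells, by mean r over the 4 libraries among 2857 genes, were Dppa5a (0.312), Zfp42 (0.30), Klf2 (0.273), Tdh (0.237) and Chchd10 (0.222). Dppa5a is an RNA-binding protein of pluripotent cells, Zfp42 (REX1) and Klf2 are naive factors, and Tdh encodes threonine dehydrogenase, an enzyme mESC depend on. The lowest were Mdk (-0.213), a heparin-binding growth factor, Fabp5 (-0.208), a fatty-acid binding protein, and Actg1 (-0.206), a cytoplasmic actin. Only genes whose r had the same sign in the 4 libraries were ranked, 1600 of the 2857 for Sox2, and likewise for the genes below. Dnmt3b, the methyltransferase of the formative list, had -0.194. Of the 2857 genes, 116 had a mean r with Sox2 of at least 0.1 in size, against 13 for Pou5f1, 11 for Utf1 and 0 for Sall4.

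The genes most like Pou5f1 were Ptma (0.162), H2afz (0.145), Mkrn1 (0.116), Set (0.114) and Npm1 (0.105), of which Ptma, Set and Npm1 are histone-binding proteins and H2afz is a histone variant. The lowest were Tpm1 (-0.136), Sparc (-0.132) and S100a11 (-0.128). Library 3 had the largest of these values, with r of 0.303 for Ptma, against 0.073, 0.113 and 0.159 in libraries 1, 2 and 4, and of -0.378 for Tpm1, against -0.046, -0.032 and -0.090. For Utf1 the leading genes were Mkrn1 (0.141), Ptma (0.120), H2afz (0.112), Dnmt3b (0.109) and Pou5f1 (0.104), and the lowest were S100a11 (-0.128), S100a10 (-0.121) and Sparc (-0.114).

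For Sall4, the least abundant of the 4 in UMIs, no gene passed 0.057. Its leading genes were Ncl, L1td1, Zfp990, Cenpf and Ube2c, and its lowest were Lgals1, Rps3 and S100a10, at -0.047 to -0.046. Cenpf and Ube2c act in mitosis. In the 25% of cells with the highest sum of the 14 G2/M genes, Sall4 was 1.14-, 1.15-, 1.30- and 1.18-fold its level in the 25% with the lowest, with intervals above 1 in each library. For Utf1 the ratios were 1.09, 1.05, 1.23 and 1.03, also with intervals above 1. Sox2 had 0.969, 1.02, 1.11 and 1.06.

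The r of Srrm2, the trapped gene, over single cells was between -0.040 and -0.0040 with Pou5f1 and between -0.047 and 0.020 with Sox2 over the 4 libraries. It was between 0.0086 and 0.033 with Sall4 and between 0.0024 and 0.040 with Utf1.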

How the data were processed

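Single-cell transcriptomes were made from droplets as 3′ UMI libraries. According to the study's methods, the authors aligned reads to mm10 and counted UMIs per gene and cell with Cell Ranger 6.1.2, then joined the 4 libraries by its aggregation step, which subsamples reads to an equal mean depth. The deposited values are counts and had not been passed through the study's cell filter, which was applied here: UMIs and genes of at least the library mean minus 1 SD, and a mitochondrial share of at most 10%. No doublet caller was run, and cells above 2 times the median UMIs were left out as an alternative.

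Counts were summed per library and range of cells, or thinned without replacement to 5000 UMIs per cell, with Python 3.11.15, numpy 2.4.6, scipy 1.17.1 and pandas 2.3.3. Background counts used genes with at least 200 counts in every library, 50 in both ranges compared, or a mean of 0.2 UMIs. Intervals are exact (95%) and cover counting error only. The spread measure was tested on simulated data. The edgeR test of Srrm2 hKO against WT that was planned, with its DESeq2, filter, block and replicate alternatives, was not run, since library numbers are not tied to samples. No p-value is given. Named genes were the 4 genes, Srrm2, members of the marker lists and, for each of the 4, genes picked by mean r. The picked genes were the 5 highest and 3 lowest among those whose r had the same sign in every library. Igfbp5, Gng11 and Serpinf1 in the closing section fall outside these rules and were named after their values were seen. The 4 genes, lists and rules were chosen with earlier results of these data known.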

Additional observations from a re-analysis of the deposited data

How the results depend on the processing

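Of 266 recomputed values for 36 results, 225 stayed within the spread of the libraries, the counting interval or 1.5 times the count. The other 41 moved. A median of ratios, excesses or r with 1 library left out lies within that spread by construction, so those values could not move. Leaving out a library that was neither highest nor lowest likewise left a level range unchanged. Turns of direction were not labelled. On the log scale the r of Pou5f1 and Sox2 was positive in libraries 1, 3 and 4 over all kept cells. Among naive only cells it was negative in every library. No paired analysis was possible because the libraries carry no sample label. Sox2 remained lower in formative only and in keratin-high cells at thresholds of 3 and 8 UMIs, at 10000 UMIs and without cells of very high depth, and Utf1 was also lower in keratin-high cells at 8 UMIs.

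The ranges over libraries became 1.39-fold (Pou5f1), 1.62-fold (Sox2), 1.32-fold (Sall4) and 1.29-fold (Utf1) with size factors. As a mean of cell shares they were 1.26-fold for Pou5f1 and 1.42-fold for Sox2, and without cells of very high depth 1.26-fold for Pou5f1. Leaving out 1 library gave 1.09 to 1.28 for Pou5f1, 1.36 to 1.40 for Sox2, 1.36 to 1.48 for Sall4 and 1.07 to 1.16 for Utf1. With no minimum count 12651 of 20013 genes (63.2%) ranged at least 1.5-fold, against 4555 of 11099 (41.0%).

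In formative only cells 428 genes of 5601 were higher and 139 lower. The numbers were 144 and 44 of 2436 genes at a threshold of 8 UMIs, and 209 of 6770 were lower at 3 UMIs. With 200 counts, which fewer genes reached, they were 106 and 33. Leaving out 1 library gave 451 to 935 higher and 146 to 384 lower, the most without library 1, which held 110 formative only cells. In keratin-high cells 596 were higher and 130 lower, against 145 and 23 with 200 counts, and 139 to 206 lower without 1 library, the most without library 2. The median ratio of Sox2 there was 0.280 at 3 and 0.209 at 8 UMIs, against 0.241, and that of Utf1 0.841 at 3 UMIs against 0.722.

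The median excess of Sox2 was 0.100 in naive only cells against 0.238, and Sox2 was then no longer among the genes past 0.1 in every library. For Pou5f1 it was 0.0305 in naive only cells and 0.0303 without thinning, and for Utf1 0.0768 without thinning. Genes past 0.1 numbered 1092 of 4673 tested at 10000 UMIs (23.4%), against 505 of 2858 (17.7%). With a mean of 0.5 UMIs, which fewer genes reached, they numbered 183. The r of Sox2 with the naive sum was 0.523 at 10000 UMIs and 0.116 in naive only cells, which were cut by that sum. The share of cells without a UMI fell without thinning to 0.163% (Pou5f1), 4.65% (Sox2), 11.9% (Sall4) and 0.553% (Utf1). Apart from what fewer libraries, cells or counted genes, or a cut on the same sum, bring by construction, the cause of these moves was not tested.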

Other observations

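The 148 keratin-high cells of library 3 without a Pou5f1 UMI were set beside its 592 keratin-high cells with one. They were chosen by a measured value and after seeing it, so the values are a description with no test. Their median depth was lower, 17297 against 28823 UMIs, and its part in these values was not tested. Utf1 measured 20.9 CPM in them against 366, Sall4 23.8 against 68.9 and Sox2 44.0 against 99.9. Summed general pluripotency genes measured 426 against 2496 CPM, S-phase genes 568 against 1519 and G2/M genes 777 against 2659. Srrm2 measured 223 against 234.

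The keratin and contractile list was higher in the cells without Pou5f1, at 13168 against 6326 CPM, with Tagln at 4476 against 1936 and Acta2, a smooth muscle actin, at 3031 against 674. A ranking of single genes did not cover all genes, and Col3a1 and Pdgfrb below were not in it. The 3 highest ratios in the ranking were those of Igfbp5 (13.1-fold), Gng11 (7.06-fold) and Serpinf1 (6.21-fold), named after their values were seen. The 3 lowest in it were Gdf3 (0.0327), L1td1 (0.0450) and Tdgf1 (0.0467). Of other cell type lists, fibroblast genes summed to 219 CPM against 52.5, and to 0.945 in naive only cells of library 3. Of its 6 genes, Col1a1 measured 79.6 against 20.3 CPM, Col1a2 99.1 against 25.4, Col3a1 35.95 against 5.78 and Pdgfrb 4.04 against 0.594, and Dcn and Lum had 1 UMI each in the cells without Pou5f1. Trophectoderm genes summed to 108 against 63.9 CPM, with Krt7 at 81.4 against 44.4, Gata3 at 17.6 against 13.1, Hand1 at 4.04 against 2.65, Tfap2a at 3.30 against 2.97, Cdx2 at 1.47 against 0.864 and Elf5 at 0 in both. Primitive endoderm genes summed to 19.8 against 5.94 CPM, with Gata6 at 11.7 against 2.11 and Sox17 at 5.87 against 2.48. Its other genes Gata4, Foxa2, Sox7 and Pdgfra measured 1.10, 0.734, 0.367 and 0 CPM in the cells without Pou5f1, against 0.432, 0.486, 0.270 and 0.162. These levels rest on 3, 2, 1 and 0 UMIs, against 8, 9, 5 and 3. Summed primitive streak genes were at 37.8 against 27.0 CPM. The two-cell-like list had 0 UMIs (interval up to 1.35 CPM) against 38 UMIs (2.05 CPM).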
